A study of Mus musculus with 105 samples.

Results

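The abundant X-linked housekeeping genes described here are *Rps4x*, *Flna*, *Huwe1*, *Usp9x*, *Uba1*, *Hcfc1*, *Rbm3*, *Atrx* and *Alg13*, 9 of the 2558 X-linked genes and of the 52108 genes in the bulk tables. They were chosen by name as abundant X-linked housekeeping genes, that is on their measured level, so that their abundance is given as a description without a test. The questions asked of them were how far each was silenced on the inactive X chromosome (Xi) relative to the active X chromosome (Xa), and whether its total level in the cell changed over the same days.

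All cells were female mouse embryonic stem cells of TX1072 (clone A3), an F1 line from a cross of the strains C57BL6/J (B6) and Cast/EiJ (Cast) whose B6 copy of *Xist* sits behind a doxycycline-responsive promoter and which holds rtTA in *Rosa26*. TXdXicB6 lacks the X-inactivation center, the region around *Xist*, on the B6 chromosome, its B6 copy of *Xist* included, and can therefore inactivate only the Cast chromosome, whereas TXdXicCast lacks it on the Cast chromosome and can inactivate only the B6 chromosome. Each of these lines is a single clone, so that a difference between them cannot be told apart from a difference between clones. RNA was sequenced in bulk from 3 cultures per line before (day 0) and 1, 2, 3 and 4 days after withdrawal of 2i and Lif, the conditions that hold the cells in the naive state, and single TX1072 cells were sequenced from 1 culture per day. The bulk libraries held 19827011 to 39628784 counts in TX1072, 20246434 to 49962859 in TXdXicB6 and 16906263 to 57920260 in TXdXicCast. The 9 stem cell markers checked were all above 1 CPM (counts per 1000000 autosomal counts) in every library of day 0, where their mean summed level was 8875 CPM in TX1072, 9401 in TXdXicB6 and 9273 in TXdXicCast. By day 4 it was 2471, 2675 and 2222. The RNA of undifferentiated TXdXicCast cells was partly degraded according to the study's methods, and its fragmentation was adjusted. Of the deletion-line libraries, 4 had a low share of allele-assigned counts, namely day 0 replicate 1 (5.21%), day 2 replicate 2 (9.57%) and day 2 replicate 1 (20.3%) of TXdXicB6 and day 3 replicate 3 (22.9%) of TXdXicCast.

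X-chromosome inactivation silences one of the X chromosomes of a female cell. The long noncoding RNA *Xist* is expressed from the future Xi, spreads over it and recruits factors that shut down transcription. The Xi:Xa ratio of a gene, its count from Xi divided by its count from Xa, is close to 1 in cells with a pair of active X chromosomes and falls as the gene is silenced, unless the alleles differ in strength. The total level can fall by less than the silencing of Xi alone would give if Xa is expressed more strongly, and it also moves with the regulation of the gene on both chromosomes during differentiation.

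The deletions were checked with *Xist* itself. In TXdXicB6 on day 4 the ratio of Cast to B6 counts of *Xist*, with 1 added to each count, was 1774, 5111 and 3033 in the 3 libraries. In TXdXicCast on day 4 the ratio of B6 to Cast counts was 1292, 467 and 2338. *Xist* was thus counted almost only from the intact chromosome in all 6 libraries. In TX1072, where either chromosome can be chosen, the B6:Cast ratio of *Xist* on day 4 was 0.732, 0.951 and 0.807.

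An allele can be read only where the strains differ in a base, and 1 or 2 such sites of each of 5 genes are shown as examples of what an allelic count rests on. The windows are from GENCODE M21 transcripts on mm10 (GRCm38), 29 bases each, 5′ to 3′ along the transcript, and the capital is the base at position 15, counted from 1 at the 5′ end of the window, at which Cast differs from B6. The substitutions are T15A and A15G in the windows of *Rps4x*, A15G in *Flna*, T15G in *Usp9x*, A15G in *Uba1* and T15C in *Atrx*.
Rps4x, coding sequence, minus strand, chrX:102185040-102185068: agagacaagaggctTgcggccaaacagag
Rps4x, coding sequence, minus strand, chrX:102186521-102186549: agaaagatctttgtAggcacaaaaggaat
Flna, coding sequence, minus strand, chrX:74223797-74223825: atcccaggcagcccAtaccgcattatggt
Usp9x, coding sequence, plus strand, chrX:13166677-13166705: ccagaagatgctccTttataccctcattc
Uba1, 3′ UTR, plus strand, chrX:20683128-20683156: tatacacacatacaAtcagtcaatcaatc
Atrx, 3′ UTR, minus strand, chrX:105798233-105798261: tataacttgaaaaaTagtaattagaagga
The transcript of *Rps4x* used has only these 2 sites, whereas those of the others have more than the 1 shown, with 18 in *Flna*, 13 in *Usp9x*, 10 in *Uba1* and 13 in *Atrx*. In the transcripts used, *Rbm3* has the most sites of the 9 (25, or 8.95 per kb) and *Huwe1* the fewest per length (12, or 0.823 per kb). Over all annotated exons of a gene *Atrx* has 50 sites, *Alg13* 37, *Huwe1* 35 and *Rbm3* 30, with the density again highest in *Rbm3* (6.39 per kb) and lowest in *Huwe1* (1.49 per kb). The nearest site lies 113 bases from the 3′ end in *Rps4x*, 270 in *Flna*, 37 in *Uba1*, 632 in *Atrx* and 4018 in *Usp9x*. The distance matters for the single-cell data, which count the 3′ ends of transcripts. Over all X-linked genes 59.0% have at least 1 such site in an exon.

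The 9 genes were abundant but did not hold most of the X-linked counts. Without *Xist*, they made up 14.9% to 17.0% of the X-linked counts of a TX1072 library, 18.3% to 21.3% in TXdXicB6 and 18.1% to 20.9% in TXdXicCast. *Rps4x* ranked first of the 1479 X-linked genes with counts in TX1072, with 3.46% of the X-linked counts. *Usp9x* ranked 4, *Flna* 7, *Huwe1* 8, *Uba1* 11 and *Atrx* 12, while *Hcfc1*, *Rbm3* and *Alg13* ranked 29, 36 and 38. Genes outside the list stood between them, among them *Klhl13* at rank 2 with 3.20%, *Ddx3x* at rank 3 with 3.06% and *Rpl10* at rank 5 with 2.73%. The lowest-ranked of the 9, *Alg13*, held 0.598% in TX1072. In the deletion lines *Huwe1* came second with 3.92% in TXdXicB6 and 3.94% in TXdXicCast, and *Alg13* stood at rank 32 and 33. Per length of exon the order differed, since *Rps4x* has 1631 bases of exon, *Huwe1* 23507 and *Atrx* 21757, and in TX1072 *Rps4x* kept rank 1 while *Huwe1* fell to 77 and *Atrx* to 87. In single cells the genes held 5.88% to 7.65% of the X-linked UMIs, distinct molecules counted at the 3′ end, with *Atrx* at rank 4, *Huwe1* at 18, *Uba1* at 21, *Rps4x* at 147 and *Rbm3* at 279 of 1414. There *Bex1* led with 3.59%, followed by *Bex3* with 3.39%.

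**Figure D1:**
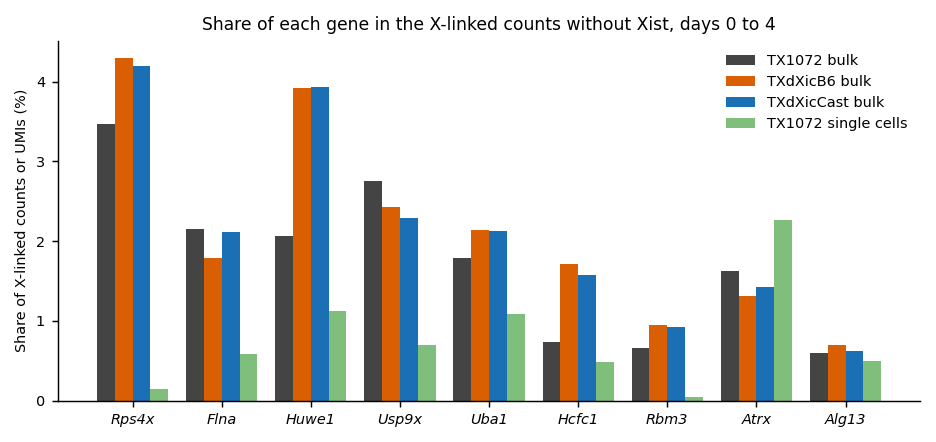
Share of each of the 9 genes in the X-linked counts without *Xist* (y axis, percent), as bars, over all bulk libraries of each line and over the retained single cells of TX1072 at days 0 to 4. *Rps4x* has the highest bar in each bulk line, 3.46% in TX1072, and a low one in single cells, where *Atrx* leads with 2.26%.

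Total levels are given in CPM, and their changes come from edgeR's quasi-likelihood test over all genes with Benjamini-Hochberg adjustment, called at an adjusted p of 0.05. The 2 scales differ. CPM divides by the summed autosomal counts alone, whereas the fits also apply TMM factors, which align the bulk of the autosomal genes, so that a fitted change can differ from the ratio of the levels printed beside it. Fitted per autosomal count without TMM, as an alternative chosen after seeing the data, the median change of all genes on day 4 was higher by 0.13 in TX1072, 0.14 in TXdXicB6 and 0.28 in TXdXicCast. For days 1, 2 and 3 of TXdXicCast it was higher by 0.19, 0.20 and 0.29, and for those of the other lines by 0.01 to 0.10. The share of higher ones among all calls on day 4 went from 49.8% to 57.6%, from 50.8% to 59.1% and from 51.6% to 63.7%. Log2 changes are from the TMM fits unless said otherwise, and for day 4 the other value is given where it ends a call or turns a direction. In bulk RNA, fewer cells of a type and less RNA per cell cannot be told apart. The p-values measure the spread between cultures that were differentiated on different days. In TX1072, 2 of the 9 genes were higher than on day 0 and 2 lower on day 1, where 47.0% of the 18871 genes tested were called in either direction. At day 2 the numbers were 1 and 4 (56.1% of all genes), on day 3 they were 1 and 3 (56.1%), and on day 4 they were 1 and 5 (59.8%). In TXdXicB6, 3 genes were higher and 3 lower on day 1 (45.7% of 19885 genes tested), 3 and 2 on day 2 (56.0%), 1 and 3 on day 3 (57.7%), and 2 and 6 on day 4 (59.3%). In TXdXicCast, 3 genes were higher and 2 lower on day 1 (58.8%), 5 and 3 on day 2 (66.2%), 3 and 2 on day 3 (68.4%), and 1 and 3 on day 4 (69.7%). Without TMM the day 4 numbers were 1 and 5 in TX1072, 2 and 4 in TXdXicB6 and 3 and 2 in TXdXicCast. On day 3 they were 1 and 2 in TX1072, 2 and 2 in TXdXicB6 and 3 and 1 in TXdXicCast, on day 2 they were 6 and 2 in TXdXicCast, and the numbers of the other days and lines were as with TMM. Calls were thus common among all genes too, and the count of members called stands against that background. The median log2 change of the 9 genes on day 4 was -0.46 in TX1072, -0.31 in TXdXicB6 and -0.14 in TXdXicCast, beside -0.22, -0.25 and 0.16 for the X-linked genes tested and -0.05, -0.00 and 0.05 for all genes tested. Without TMM the medians of the 9 were -0.33, -0.17 and 0.13, beside 0.08, 0.14 and 0.34 for all genes.

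Silencing is given as the change of the log2 Xi:Xa ratio from day 0, fitted in edgeR on the allele-specific counts of the 30 deletion-line libraries with a term per library, and called at the same adjusted p over all genes. In TXdXicB6, where Xi is Cast, 0 of the 9 genes had a lower Xi:Xa ratio on day 1, 4 on day 2, 8 on day 3 and 9 on day 4. Among the 518 X-linked genes tested, 5.02%, 28.0%, 51.4% and 59.1% were lower at these days. In TXdXicCast, where Xi is B6, 2 of the 9 genes were lower on day 1, 7 on day 2, 9 on day 3 and 9 on day 4, beside 6.56%, 26.4%, 36.9% and 46.3% of X-linked genes. The size of the changes was not large among X-linked genes, with a median log2 change on day 4 of -0.72 against -1.21 in TXdXicB6, and of -0.66 against -0.68 in TXdXicCast. In TXdXicB6, 50.6% of the X-linked genes tested had a more negative change than *Hcfc1*, the most silenced of the 9, and 86.1% had a more negative one than *Usp9x*. In TXdXicCast the shares ran from 31.3% for *Flna* to 80.5% for *Rps4x*.

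**Figure D2:**
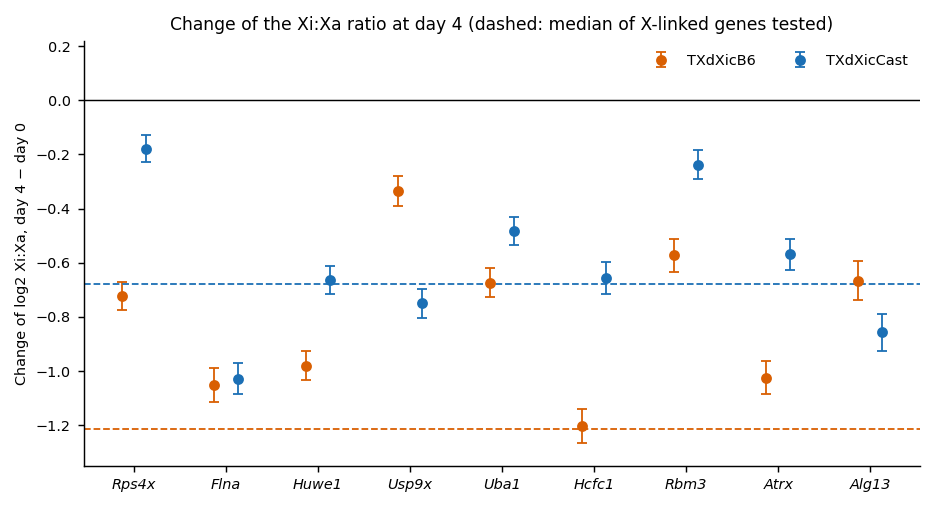
Change of the log2 Xi:Xa ratio from day 0 to day 4 (y axis) of each of the 9 genes in TXdXicB6 (orange) and TXdXicCast (blue), as points with standard errors, n = 3 libraries per line and day. The dashed lines are the medians of the 518 X-linked genes tested, -1.21 in TXdXicB6 and -0.68 in TXdXicCast, and all 9 orange points lie on or above the orange line.

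*Rps4x* (ENSMUSG00000031320, X, 102184941 to 102189394) encodes a protein of the small ribosomal subunit. In TX1072 its level was 2214, 2044 and 2001 CPM on day 0 and 1732, 1685 and 1566 CPM on day 4. All day 4 libraries lay below all day 0 libraries, with a log2 change of -0.46 ± 0.11 (SE, n = 3 against 3, edgeR adjusted p = 0.0016). In TXdXicB6 the level was 2376, 2064 and 2254 CPM on day 0 and 2124, 1640 and 2523 CPM on day 4, and in TXdXicCast it was 1892, 2398 and 2331 CPM and then 2107, 2335 and 2194 CPM. In both deletion lines the days overlapped, and neither change was called (log2 -0.23 and -0.28, and -0.09 and 0.0033 without TMM). With the culture number as a block and TMM, both were called lower (log2 -0.25 and -0.27), although the levels of TXdXicCast hardly differed between the days. On the alleles, the Xi:Xa ratio in TXdXicB6 was 1.07, 1.16 and 1.04 on day 0 and 0.702, 0.614 and 0.669 on day 4, a log2 change of -0.72 ± 0.051. In TXdXicCast it began lower, at 0.756, 0.814 and 0.691, stood at 0.867, 0.898 and 0.914 on day 1 and ended at 0.659, 0.677 and 0.656. The day 4 values of the lines overlapped and the day 0 values did not. Its change in TXdXicCast was 0.25 on day 1, a call toward Xi, and -0.18 ± 0.050 on day 4, a call that was lost without replicate 2 (-0.14).

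The allele counts of *Rps4x* differed between kinds of library. Of its counts on day 0, 8.00%, 9.06% and 8.26% were assigned to an allele in TX1072, 6.19%, 38.7% and 35.6% in TXdXicB6 and 43.8%, 41.7% and 42.0% in TXdXicCast. Over all genes the shares were 19.9%, 20.3% and 18.1% in TX1072, 5.21%, 33.3% and 31.4% in TXdXicB6 and 34.2%, 33.3% and 32.2% in TXdXicCast, so that *Rps4x* stood below all genes in TX1072 and above them in the deletion lines, where the first TXdXicB6 library was low for both. The B6:Cast ratio in TX1072 was 2.19, 5.96 and 6.97 on day 0 and 2.15, 7.28 and 8.08 on day 4, so that replicate 1 stood apart from the other two at both days. In undifferentiated single cells 1762 UMIs of *Rps4x* came from B6 and 9 from Cast, although the level was 103 CPM. At day 4, cells with *Xist* from B6, whose Xi is the B6 chromosome, still had 300 B6 UMIs and 1 Cast UMI. No silencing of *Rps4x* can therefore be read from single cells. The TX1072 bulk libraries had reads of 2 × 50 bases and the deletion lines 2 × 100 bases, and *Rps4x* has processed copies and the paralog *Rps4l*. The part of these in the allele counts was not tested, and the allelic values of *Rps4x* are uncertain.

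*Rbm3* (ENSMUSG00000031167, X, 8138975 to 8145880) encodes an RNA-binding protein known from the response to cold. In TX1072 its level was 333, 327 and 312 CPM on day 0 and 376, 307 and 319 CPM on day 4, with overlapping days and no call at any day. In TXdXicB6 it was 332, 381 and 384 CPM on day 0 and 581, 388 and 580 CPM on day 4 (log2 0.36 ± 0.14, edgeR adjusted p = 0.026), all above day 0. This call was lost without replicate 1 (0.22), without replicate 3 (0.28) or without the 4 libraries of low allele share (0.32). Counted from day 1, the change was -0.084 and not called. In TXdXicCast the level was 410, 390 and 410 CPM and then 549, 384 and 580 CPM, which overlap, with a change of 0.04 that was not called and of 0.32 that was called without TMM (edgeR adjusted p = 0.0322). *Rbm3* kept the highest Xi:Xa ratio of the 9 genes in TXdXicCast, where Xi is B6, with 1.47, 1.35 and 1.45 on day 0 and 1.24, 1.14 and 1.24 on day 4 (log2 -0.24 ± 0.054). In TXdXicB6 the ratio was 0.685, 0.785 and 0.769 on day 0 and 0.515, 0.518 and 0.506 on day 4 (log2 -0.57 ± 0.060). At day 0 more counts thus came from B6 than from Cast in each library of both lines, and the B6:Cast ratio in TX1072 was 1.41, 1.68 and 1.25. Counted from day 1 the TXdXicCast change on day 4 was -0.07 and not called.

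**Figure D3:**
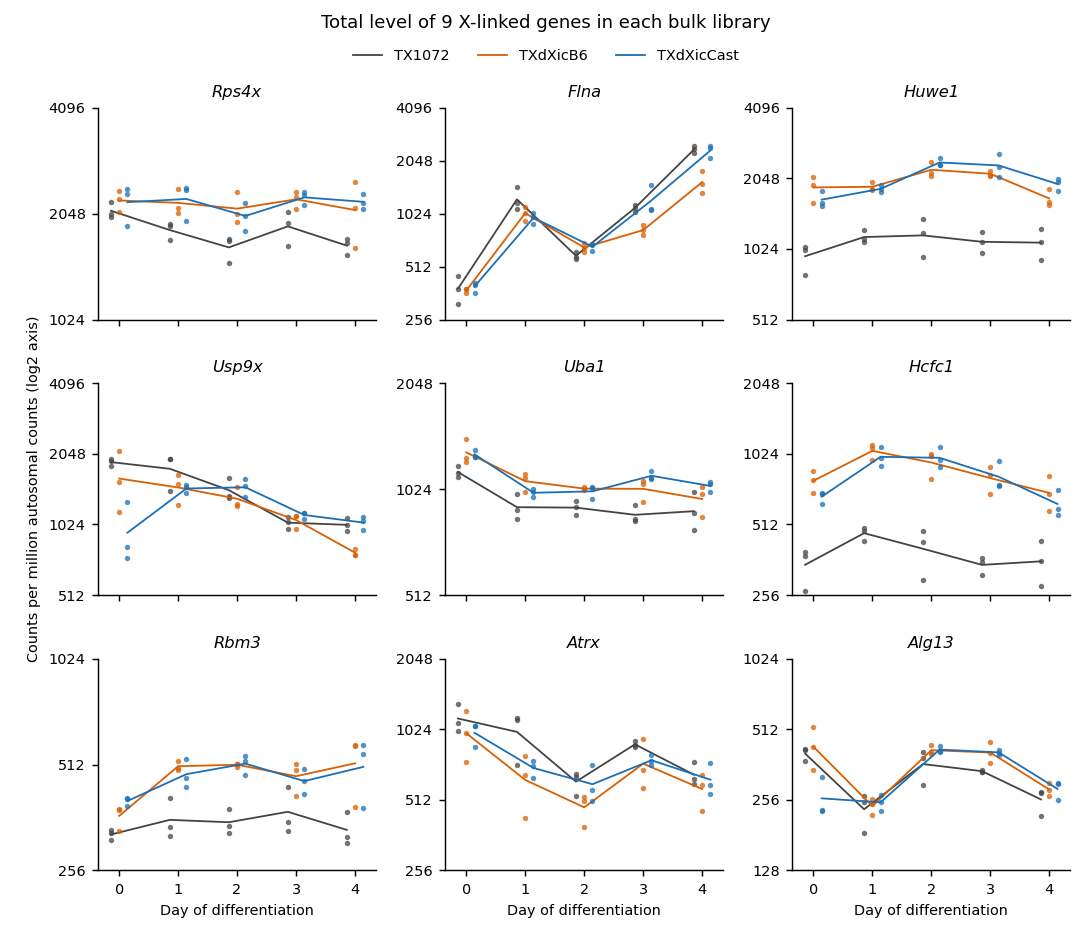
Total level of each of the 9 genes (y axis, counts per 1000000 autosomal counts, log2 axis with its own range per panel) by day of differentiation (x axis) in TX1072, TXdXicB6 and TXdXicCast. Points are the 3 libraries per line and day and lines join their means, and *Flna* shows the steepest course, from 384 to 2366 CPM in TX1072, with a dip on day 2.

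*Uba1* (ENSMUSG00000001924, X, 20658326 to 20683179) encodes the main enzyme that activates ubiquitin, *Huwe1* (ENSMUSG00000025261, X, 151800807 to 151935417) a large ubiquitin ligase and *Usp9x* (ENSMUSG00000031010, X, 13071498 to 13173328) a protease that removes ubiquitin. *Uba1* was lower than on day 0 on each of the 4 days in all 3 lines. In TX1072 its level went from 1134, 1193 and 1106 CPM on day 0 to 781, 1003 and 874 CPM on day 4 (log2 -0.50 ± 0.10). In TXdXicB6 it went from 1425, 1257 and 1224 CPM to 992, 1035 and 852 CPM (log2 -0.58 ± 0.093), and in TXdXicCast from 1267, 1263 and 1326 CPM to 1073, 1056 and 1006 CPM (log2 -0.59 ± 0.093, and -0.30 without TMM, also called). No library of day 4 reached the lowest of day 0 in any line. On day 1 the change was -0.35 in TX1072, -0.30 in TXdXicB6 and -0.55 in TXdXicCast (-0.36 without TMM). The Xi:Xa ratio of *Uba1* in TXdXicCast was then 0.995, 0.989 and 0.981. From day 1 instead of day 0, the total dose change in TXdXicCast was 0.0011 on day 2 and 0.059 on day 3, neither called. The part of the degraded day 0 RNA of this line was not tested. The Xi:Xa ratio of *Uba1* was not called lower on day 2 in either deletion line and fell later, to 0.629, 0.575 and 0.596 on day 4 in TXdXicB6 (log2 -0.67 ± 0.053) and to 0.729, 0.706 and 0.686 in TXdXicCast (log2 -0.48 ± 0.051).

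The log2 changes of the total level of *Huwe1* from day 0 lay between -0.29 and 0.33 over all lines and days, and between -0.16 and 0.53 without TMM, where the highest were days 2 (0.53) and 3 (0.49) in TXdXicCast. In TX1072 it was 796, 1016 and 1047 CPM on day 0 and 920, 1246 and 1101 CPM on day 4, with no call. In TXdXicB6 it was 1614, 1922 and 2079 CPM and then 1578, 1835 and 1626 CPM (log2 -0.29 ± 0.087, adjusted p = 0.0055 in edgeR), a call that was lost without replicate 3 (-0.21) or without TMM (-0.16), and the days overlapped. In TXdXicCast it was 1609, 1813 and 1558 CPM and then 2029, 1799 and 1983 CPM, a change of -0.06 that was not called with TMM and of 0.22 that was called without it (edgeR adjusted p = 0.0356). Its alleles were nearly equal before differentiation, with Xi:Xa ratios of 1.00, 1.01 and 0.968 in TXdXicB6 and 0.960, 0.963 and 0.999 in TXdXicCast. They were called lower from day 2 on and reached 0.516, 0.497 and 0.490 in TXdXicB6 (log2 -0.98 ± 0.054) and 0.651, 0.604 and 0.588 in TXdXicCast (log2 -0.66 ± 0.051). The Xa levels of *Huwe1*, in counts per 1000000 allele-specific autosomal counts of 1 allele, were 890 ± 137 (SD, n = 3) on day 0 and 1137 ± 129 on day 4 in TXdXicB6, and 673 ± 139 and 1222 ± 67.4 in TXdXicCast. The Xi means were 881 and 570 in TXdXicB6, and 654 and 751 in TXdXicCast. In TXdXicCast the share of *Huwe1* counts assigned to an allele was 13.4% ± 1.64 on day 0 and 16.9% ± 0.737 on day 4. In TXdXicB6 it was 11.5% ± 7.87 and 17.6% ± 1.75. The part of this share in the allelic levels was not tested.

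*Usp9x* was lower on day 4 than on day 0 in TX1072 and TXdXicB6 and not called in TXdXicCast. In TX1072 it fell from 1945, 1813 and 1903 CPM on day 0 to 1015, 957 and 1086 CPM on day 4 (log2 -1.02 ± 0.12), without overlap. In TXdXicB6 it fell from 1154, 1556 and 2106 CPM to 759, 761 and 807 CPM (log2 -1.18 ± 0.15). In TXdXicCast it was 736, 1275 and 820 CPM on day 0, 1389, 1477 and 1502 CPM on day 1, where it was called higher (0.45), and 972, 1056 and 1099 CPM on day 4 (-0.13 with TMM and 0.14 without, neither called). The day 1 call was lost without replicate 1 (0.33) or 3 (0.37), and the day 0 libraries of TXdXicCast spread more widely than those of the later days. The Xi:Xa ratio of *Usp9x* in TXdXicB6 was 0.810, 0.832 and 0.874 on day 0, 0.984, 0.942 and 0.991 on day 2, called higher (0.21), and 0.718, 0.643 and 0.642 on day 4 (log2 -0.34 ± 0.056). The call on day 2 was lost without replicate 1 (0.19) or 2 (0.21). In TXdXicCast, where Xi is B6, the ratio had fallen from 1.12, 1.13 and 1.10 on day 0 to 0.807, 0.801 and 0.716 on day 2 (log2 -0.52 ± 0.053) and was 0.702, 0.643 and 0.635 on day 4 (log2 -0.75 ± 0.054).

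*Atrx* (ENSMUSG00000031229, X, 105797615 to 105929403) encodes a chromatin remodeler that deposits histone H3.3 with *Daxx*, and *Hcfc1* (ENSMUSG00000031386, X, 73942792 to 73966357) a host cell factor that tethers chromatin-modifying enzymes to transcription factors. *Atrx* fell in all lines, in TX1072 from 1314, 1009 and 1089 CPM to 631, 596 and 739 CPM on day 4 (log2 -0.92 ± 0.15). In TXdXicB6 it went from 743, 988 and 1224 CPM to 460, 594 and 654 CPM (log2 -0.92 ± 0.19) and in TXdXicCast from 857, 1056 and 1053 CPM to 593, 736 and 544 CPM (log2 -0.95 ± 0.19). The level dipped on day 2, was higher again on day 3 and lower on day 4, as the plot of total levels by day shows. Its Xi:Xa ratio dropped between days 1 and 2 in both lines. It was 1.01, 1.02 and 1.09 on day 1 and 0.599, 0.611 and 0.597 on day 2 in TXdXicB6, and 0.907, 0.922 and 0.907 and then 0.646, 0.590 and 0.534 in TXdXicCast. At day 4 it was 0.479, 0.494 and 0.460 in TXdXicB6 (log2 -1.02 ± 0.061), below day 2, and 0.649, 0.628 and 0.617 in TXdXicCast (log2 -0.57 ± 0.057), within or above the range of day 2.

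*Hcfc1* was higher on day 1 than on day 0 in all 3 lines (log2 0.43, 0.40 and 0.38). In TX1072 the level was 267, 391 and 375 CPM on day 0, 433, 481 and 495 CPM on day 1 and 279, 434 and 357 CPM on day 4. The day 1 call in TX1072 was lost without replicate 1 (0.33) or 3 (0.45), that in TXdXicB6 without replicate 1 (0.29) or 2 (0.48), and that in TXdXicCast without replicate 1 (0.33). In TXdXicB6 its level was 696, 867 and 792 CPM on day 0 and 690, 821 and 581 CPM on day 4 (log2 -0.31 ± 0.13, adjusted p = 0.048 in edgeR), and leaving out any of the 3 replicates (-0.37 to -0.21) or TMM (-0.17) ended that call. In TXdXicCast the level was 691, 700 and 625 CPM on day 0 and 719, 595 and 563 CPM on day 4 (log2 -0.38 ± 0.13, adjusted p = 0.012 in edgeR), and the call was lost without replicate 2 (-0.34) or 3 (-0.31) and without TMM (-0.10), with overlapping days. *Hcfc1* had the most negative change of the Xi:Xa ratio in TXdXicB6, from 1.24, 1.12 and 1.09 on day 0 to 0.506, 0.518 and 0.433 on day 4 (log2 -1.20 ± 0.062). In TXdXicCast it went from 0.865, 0.939 and 0.885 to 0.575, 0.537 and 0.595 (log2 -0.66 ± 0.059). No library of day 4 came near those of day 0 in either line.

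*Flna* (ENSMUSG00000031328, X, 74223461 to 74249820) encodes filamin A, which crosslinks actin filaments. It rose while it was silenced on Xi. In TX1072 the level was 381, 454 and 315 CPM on day 0, 1090, 1441 and 1171 CPM on day 1, 565, 582 and 623 CPM on day 2, 1047, 1153 and 1108 CPM on day 3 and 2257, 2471 and 2371 CPM on day 4. All 4 days were called higher than day 0 in each of the 3 lines, with day 4 log2 changes of 2.49 ± 0.14 in TX1072, 1.91 ± 0.12 in TXdXicB6 and 2.28 ± 0.12 in TXdXicCast. In TXdXicB6 *Flna* went from 380, 381 and 361 CPM to 1338, 1791 and 1510 CPM on day 4, and in TXdXicCast from 364, 415 and 403 CPM to 2116, 2427 and 2475 CPM. Its Xi:Xa ratio was 0.711, 0.736 and 0.719 on day 0 in TXdXicB6, slightly higher on day 1 (0.24, a call lost without replicate 2, 0.26) and 0.359, 0.383 and 0.309 on day 4 (log2 -1.05 ± 0.063). In TXdXicCast the ratio fell from 1.27, 1.25 and 1.26 on day 0 to 0.735, 0.697 and 0.645 on day 2 and 0.617, 0.598 and 0.634 on day 4 (log2 -1.03 ± 0.057). Both alleles had more counts on day 4 than on day 0 even so. In counts per 1000000 allele-specific autosomal counts of 1 allele, Xa went from 501 ± 44.6 (SD, n = 3) on day 0 to 2523 ± 289 on day 4 in TXdXicB6 and Xi from 362 ± 30.5 to 886 ± 167. In TXdXicCast Xa went from 373 ± 27.6 to 3214 ± 203 and Xi from 469 ± 32.0 to 1981 ± 134.

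Markers of other cell types had other levels on day 4 than on day 0 in TX1072. Those of formative or primed epiblast were already higher on day 1, and those of mesoderm and trophoblast were lower on that day. The 7 markers of formative or primed epiblast summed to a mean of 329 CPM on day 0 in TX1072 and to 1440, 3482, 2529 and 1286 CPM on days 1 to 4. The summed level of 5 mesoderm markers, 3 or 4 of them above 1 CPM on day 4, was 11.4 to 15.6 CPM on day 0 and 96.9 to 257 CPM on day 4 in TX1072, with *T* the most abundant, and ended at 23.8 to 44.2 CPM in TXdXicB6 and at 19.01 to 145 CPM in TXdXicCast. The sum of 6 primitive endoderm markers, 4 to 6 of them above 1 CPM on day 4, was 4.69 to 7.67 CPM on day 0 and 45.3 to 70.8 CPM on day 4 in TX1072, led by *Dab2*. Of the 6 trophoblast markers, 5 were above 1 CPM on day 4, and their sum of 71.1 to 102 CPM on day 0 became 193 to 251 CPM, led by *Eomes*. The 5 neural progenitor markers, 3 of them above 1 CPM on day 4, summed to 69.0 to 104 CPM on day 0 and 196 to 229 CPM on day 4 in TX1072, led by *Nes*, and reached 115 to 159 CPM in TXdXicB6 and 112 to 216 CPM in TXdXicCast. On day 1 in TX1072 the mesoderm markers averaged 3.23 CPM (13.4 on day 0), the trophoblast markers 40.2 CPM (82.5 on day 0), the neural progenitor markers 83.2 CPM (82.8 on day 0) and the primitive endoderm markers 7.94 CPM (5.98 on day 0). The 5 fibroblast markers summed to 21.7 to 31.5 CPM on day 0 and 14.3 to 16.5 CPM on day 4. Summed marker levels do not show that these cell types were present, and the part of any of them in the level of *Flna* was not tested.

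*Alg13* (ENSMUSG00000041718, X, 144317804 to 144374450) encodes a subunit of the enzyme that adds the second sugar to the lipid-linked oligosaccharide of N-glycosylation. Its total level followed a zigzag, in TX1072 with 420, 374 and 416 CPM on day 0, 265, 186 and 250 CPM on day 1, 408, 296 and 387 CPM on day 2 and 219, 275 and 277 CPM on day 4. Days 1 and 4 were called lower there (log2 -0.80 ± 0.14 and -0.78 ± 0.14). In TXdXicB6 the level was 343, 429 and 522 CPM on day 0, 220, 246 and 257 CPM on day 1 and 304, 265 and 282 CPM on day 4, with the same calls (-0.86 and -0.74). Counted from day 1, the day 4 change in TXdXicB6 was 0.12 and not called. In TXdXicCast the level was 231, 320 and 229 CPM on day 0, below each TXdXicB6 library of that day. The part of the degraded day 0 RNA of TXdXicCast in this was not tested. It was 231, 251 and 268 CPM on day 1 and 410, 412 and 436 CPM on day 2, called higher (0.50). On day 4 the level was 298, 302 and 255 CPM (-0.14 with TMM and 0.13 without, neither called). The Xi:Xa ratio of *Alg13* fell from 0.705, 0.766 and 0.792 on day 0 to 0.484, 0.465 and 0.503 on day 4 in TXdXicB6 (log2 -0.67 ± 0.072), and from 1.38, 1.35 and 1.25 to 0.801, 0.769 and 0.619 in TXdXicCast (log2 -0.86 ± 0.069). As in *Flna*, *Rbm3* and *Usp9x*, more counts came from B6 than from Cast on day 0 in both lines.

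**Figure D4:**
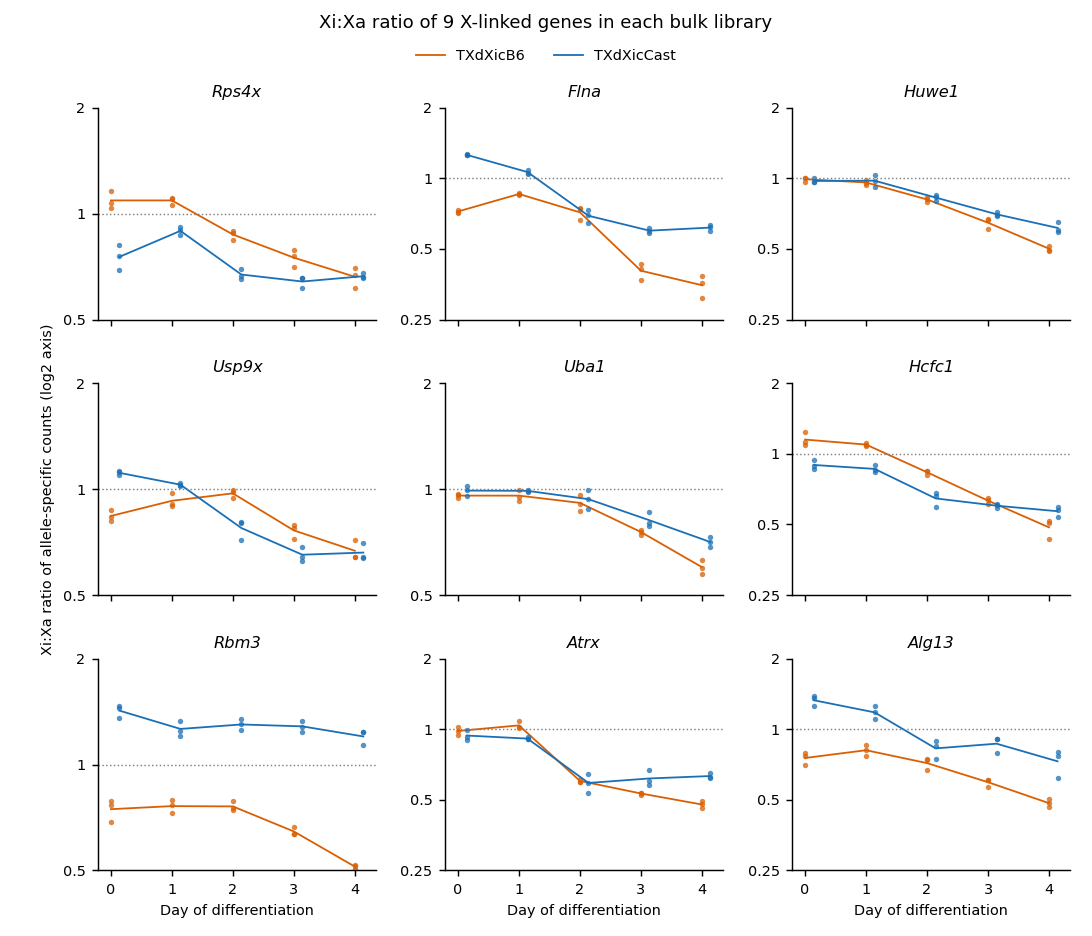
Xi:Xa ratio of allele-specific counts of each of the 9 genes (y axis, log2 axis with its own range per panel, 1 added to each count) by day of differentiation (x axis) in TXdXicB6 (Xi is Cast) and TXdXicCast (Xi is B6). Points are the 3 libraries per line and day, lines join their means and the dotted line marks equal counts, and by day 4 all ratios except that of *Rbm3* in TXdXicCast, 1.20 ± 0.0578 (SD, n = 3), lie below 1.

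The difference in silencing between the lines was tested as the TXdXicCast change minus the TXdXicB6 change, so that a negative value means that the Xi:Xa ratio moved lower where Xi is B6. A shift of the same size toward the Cast allele in both lines, whichever is Xi, gives a negative value too, and the test does not tell these apart. At day 1, 3 of the 9 genes differed (16.6% of 518 X-linked genes), on day 2 also 3 (19.3%), on day 3 there were 5 (25.5%) and on day 4 there were 7 (34.4%). The median difference of the X-linked genes tested was 0.05, 0.09, 0.32 and 0.48 on days 1 to 4. On day 4, 154 X-linked genes were called with a positive difference and 24 with a negative one. *Usp9x* was the gene that differed on all 4 days (-0.24, -0.73, -0.63 and -0.41), although the day 1 call was lost without replicate 1 or 2 (edgeR adjusted p = 0.153 and 0.100). On day 1 its ratio was not called lower in either line (0.13 in TXdXicB6 and -0.11 in TXdXicCast), and on day 2 it was higher in TXdXicB6 (0.21) and lower in TXdXicCast (-0.52), so that the Cast allele gained on B6 in both. *Flna* differed with the same sign on day 1 (-0.48) and day 2 (-0.83). Its day 1 difference was made of 0.24 in TXdXicB6 and -0.24 in TXdXicCast, again a gain of the Cast allele in both lines. Its day 3 difference (-0.23) was called with all replicates, was lost without replicate 1 or 2 (edgeR adjusted p = 0.213 and 0.266), and turned to 0.25, called in the other direction (edgeR adjusted p = 0.0150), when changes were counted from day 1. Its day 4 difference was 0.02 ± 0.085. *Alg13* differed on day 2 (-0.59). In the other direction, with a ratio that moved lower where Xi is Cast, stood *Hcfc1* (0.55 ± 0.086), *Rps4x* (0.54 ± 0.071), *Atrx* (0.46 ± 0.083), *Rbm3* (0.34 ± 0.081), *Huwe1* (0.32 ± 0.074) and *Uba1* (0.19 ± 0.074) on day 4. This is the direction of most X-linked calls, and only *Hcfc1* and *Rps4x* lay above the X-linked median of 0.48. The *Uba1* call was lost when any replicate was left out (0.17 to 0.22). Counted from day 1 instead of day 0, the *Usp9x* difference on day 4 was -0.17 and not called, and that of *Flna* was 0.51 and called. With that baseline the day 2 differences were smaller, at -0.35 for *Flna*, -0.33 for *Alg13* and -0.48 for *Usp9x*. The day 3 difference of *Usp9x* became -0.38, and these differences were still called.

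The lines were also compared in total dose. At day 1, 1 of the 9 genes differed (5.01% of 19885 genes), on day 2 there were 2 (6.43%), on day 3 there was 1 (9.03%) and on day 4 there were 2 (14.9%). Of the 729 X-linked genes tested, 153 had a called positive difference on day 4 and 15 a negative one. Their median difference was 0.06, 0.11, 0.20 and 0.37 on days 1 to 4, beside 0.002 for all genes on day 4. The 2970 genes behind the day 4 share became 101 without replicate 3, 165 when changes were counted from day 1 and 4771 with the replicate block. The members that differed were *Alg13*, with a higher change in TXdXicCast on all 4 days (log2 difference 0.62, 0.55, 0.55 and 0.59), and *Usp9x* on day 2 (0.74) and day 4 (1.05). Without TMM these 6 were called too (log2 difference on day 4 of 0.74 for *Alg13* and 1.19 for *Usp9x*), and so were *Flna* (0.48) and *Usp9x* (0.84) on day 3 and *Flna* (0.52) and *Huwe1* (0.38) on day 4, with the median difference of all genes higher by 0.15 to 0.19 and the share of positive ones among all calls on day 4 at 71.9% against 51.0%. None of the 6 calls held each time a replicate was left out. The 4 calls of days 1 to 3 were lost whichever replicate was left out, with edgeR adjusted p from 0.0798 to 0.435 for *Alg13* on day 1, 0.0985 to 0.438 on day 2 and 0.0895 to 0.334 on day 3, and from 0.0914 to 0.347 for *Usp9x* on day 2. The day 0 libraries of TXdXicCast, whose RNA was partly degraded, enter each of these differences, and the part of the RNA quality in them was not tested. Counted from day 1, the difference of *Alg13* turned to -0.07 on day 2, -0.08 on day 3 and -0.03 on day 4, that of *Usp9x* was 0.15 on day 2 and 0.46 on day 4, and none of these was called. Both day 4 calls from day 0 were lost without replicate 3 (0.50 for *Alg13* and 0.78 for *Usp9x*), and that of *Alg13* without replicate 2 (0.66).

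The weight of the 9 genes in the chromosome-wide ratio can be read by leaving them out. The Xi:Xa ratio of all X-linked counts on day 4 was 0.463 ± 0.0266 (SD, n = 3) in TXdXicB6 with them and 0.440 ± 0.0298 without, while that of the 9 genes together was 0.528. In TXdXicCast it was 0.618 ± 0.0114 with and 0.599 ± 0.0104 without them, beside 0.672 for the 9 genes. Within a library of day 4 the ratio was higher with the 9 genes than without them in 3 of 3 libraries of each line, by 0.0228 ± 0.00552 (SD, n = 3) in TXdXicB6 and by 0.0189 ± 0.00253 in TXdXicCast. On day 0 the mean ratio was lower with them, at 0.985 against 1.001 without in TXdXicB6 and 0.997 against 1.017 in TXdXicCast.

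In TX1072 either chromosome can be silenced, and the bulk B6:Cast ratio can move when one of them is silenced more often or more strongly. Against day 0, the ratio was changed for 2 of the 9 genes on day 1 (7.16% of 461 X-linked genes tested), 2 on day 2 (11.7%), 2 on day 3 (10.8%) and 3 on day 4 (11.3%). The 52 X-linked genes behind the day 4 share became 34 without replicate 3. *Flna* fell from 1.19, 1.35 and 1.27 on day 0 to 0.932, 0.897 and 0.927 on day 4 (log2 -0.46 ± 0.059) and *Usp9x* from 1.12, 1.11 and 1.14 to 0.782, 0.836 and 0.817 (log2 -0.47 ± 0.054), both toward Cast and without overlap. Much of both shifts was there on the first days. *Flna* stood at 1.01, 0.983 and 1.04 on day 1 (log2 -0.32 ± 0.060) and at 0.997, 0.980 and 1.01 on day 2 (-0.34), and *Usp9x* at 0.999, 1.00 and 0.963 on day 1 (-0.18 ± 0.052) and at 0.803, 0.785 and 0.801 on day 2 (-0.50), all 4 called, although the day 1 call of *Usp9x* was lost without replicate 3 (-0.16), as was the day 3 call of *Flna* (-0.26). *Alg13* went from 1.38, 1.42 and 1.35 to 1.19, 1.15 and 1.26 on day 4 (log2 -0.21 ± 0.068, edgeR adjusted p = 0.026), and this call was lost without replicate 1 (-0.21) or 2 (-0.16). *Huwe1*, *Uba1*, *Hcfc1*, *Rbm3*, *Atrx* and *Rps4x* were not called at any day. For *Rps4x* the standard error on day 4 was 0.31, against 0.054 to 0.093 for the other 8.

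The same genes were counted in single TX1072 cells, which per the study's methods came from the cell population of bulk TX1072 replicate 1 and so are not independent of that library. From 2000 capture sites, 1472 cells retained by the study were used, 277, 325, 341, 257 and 272 at days 0 to 4. The 40 row barcodes of a capture plate recur in each of its columns by design, so that a cell is named by its row and column. A day is 1 culture, so there is no test between days, and the intervals given are exact 95% intervals that cover counting error only. Summed over cells, *Flna* stood at 117 CPM on day 0 (interval 114 to 121), 332 on day 1, 137 on day 2, 294 on day 3 and 590 (583 to 597) on day 4, the same sequence of high and low days as in bulk. *Usp9x* went from 467 CPM (460 to 474) on day 0 to 204 (200 to 209) on day 4, and *Atrx* from 1457 (1445 to 1470) to 768 (760 to 776). *Alg13* was at 320 CPM on day 0, 222 on day 1, 313 on day 2 and 156 on day 4. *Rps4x* was counted at 32.4 CPM on day 1, far below its 103 CPM on day 0 and 77.8 on day 2, a dip that the bulk libraries of day 1 did not show (1890, 1907 and 1718 CPM). Per the labels, the single-cell libraries of day 1 alone were also sequenced in a Rapid Run, whose cDNA read was shorter per the study's methods, and the part of this in the value was not tested.

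Cells were grouped by *Xist* into those without a UMI of it and those with more than 5 allele-specific *Xist* UMIs, all from B6 or all from Cast, whose Xi was taken to be that chromosome. At day 4 these were 46, 79 and 43 cells. In the cells without *Xist*, 50.0% of *Atrx* UMIs came from B6 (46.3 to 53.7), and 52.6% (49.4 to 55.8) of those of *Uba1*, but 62.2% (56.4 to 67.8) of those of *Flna* and 68.4% (61.7 to 74.6) of those of *Usp9x*. Such cells gave other B6 shares of *Usp9x* on day 0, 56.1% (53.5 to 58.7), and day 3, 41.5% (33.4 to 49.9). For *Flna* the day 3 share was 50.6% (39.1 to 62.1). In day 4 cells with Xi B6, 19.3% (17.0 to 21.7) of *Atrx* UMIs came from Xi, and in cells with Xi Cast 17.1% (13.6 to 21.1). For *Uba1* the shares were 25.7% (23.5 to 28.1) and 23.2% (19.4 to 27.2). These intervals overlap between the chromosomes for both genes. For *Flna* 29.0% (24.1 to 34.3) of UMIs came from Xi B6 but 6.49% (3.16 to 11.6) from Xi Cast, and for *Huwe1* 22.7% (17.7 to 28.4) and 8.97% (3.68 to 17.6). The intervals of *Flna* lay far apart and those of *Huwe1* just separated. Before *Xist* was seen, *Flna* was at 58.1% B6 (51.6 to 64.4) and *Huwe1* at 51.1% (47.3 to 54.9) on day 0. The shares of *Usp9x* were 28.6% and 19.6%, of *Alg13* 21.7% and 11.5%, of *Rbm3* 27.2% and 12.5% (3 Xi UMIs and 21 Xa UMIs), and of *Hcfc1* 30.7% and 40.0% (14 Xi UMIs and 21 Xa UMIs), all with overlapping intervals. The 9 genes together gave 29.6% (28.2 to 31.0) from Xi B6 and 14.9% (13.2 to 16.7) from Xi Cast, and the other X-linked genes 25.1% (24.7 to 25.6) and 12.9% (12.4 to 13.4). The sum includes *Rps4x*, whose UMIs were nearly all assigned to B6 in every class. Without *Rps4x*, the remaining 8 genes gave 23.9% (22.6 to 25.4) from Xi B6, with an interval that overlaps that of the other X-linked genes, and 17.8% (15.9 to 19.9) from Xi Cast, above them.

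**Figure D5:**
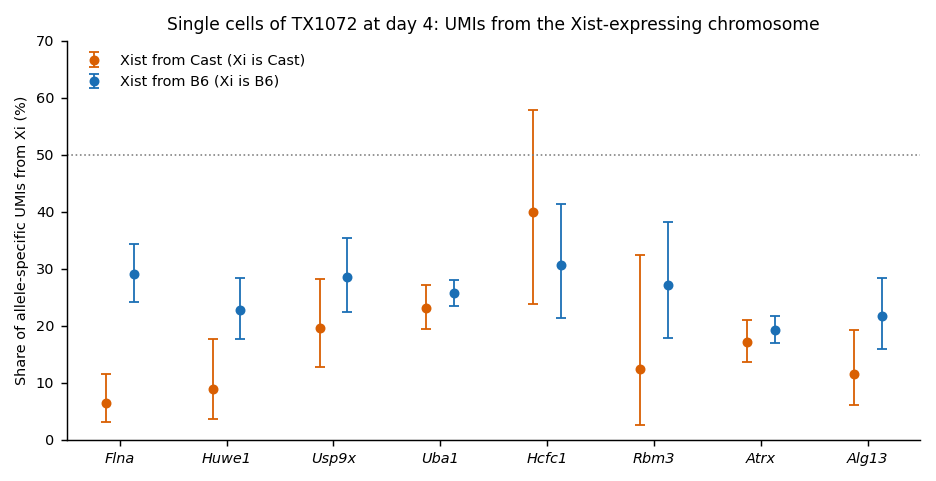
Share of allele-specific UMIs from Xi (y axis, percent) for 8 of the 9 genes in single TX1072 cells of day 4, in 43 cells with *Xist* from Cast (orange) and 79 cells with *Xist* from B6 (blue), with exact 95% intervals for counting error and the dotted line at equal shares. *Rps4x* is left out because its UMIs were nearly all assigned to B6, and all points lie below the dotted line, with *Flna* lowest at 6.49% where Xi is Cast.

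Single cells of earlier days gave the following shares. At day 3, 33.6% (30.2 to 37.2) of *Atrx* UMIs came from Xi in 61 cells with Xi B6 and 29.6% (25.4 to 33.9) in 38 cells with Xi Cast, and for *Uba1* the shares were 36.7% (33.4 to 40.1) and 37.8% (33.2 to 42.4). Beside *Rps4x*, the intervals were apart for 3 genes. For *Flna* the share was 33.3% (23.6 to 44.3) from Xi B6 and 7.69% (2.54 to 17.1) from Xi Cast, and for *Alg13* 34.7% (28.1 to 41.8) and 19.9% (13.8 to 27.1), so that both had the higher share from Xi B6. For *Rbm3* it was the reverse, with 28.0% (19.1 to 38.2) and 61.5% (44.6 to 76.6). These shares are not set against day 0. The bulk Xi:Xa ratio on day 3 was also higher where Xi is B6 than where it is Cast for *Flna* (0.582, 0.595 and 0.617 against 0.409, 0.433 and 0.370) and *Alg13* (means of 0.868 and 0.595). For *Rbm3* the bulk ratio was higher where Xi is B6 too (means of 1.28 and 0.645), opposite to its single-cell shares. On day 2, *Atrx* was at 39.1% (35.6 to 42.6) in 78 cells with Xi B6 and at 28.1% (20.97 to 36.1) in 12 cells with Xi Cast, while *Uba1* was still at 48.1% (44.7 to 51.5) and 52.0% (44.3 to 59.7). *Atrx* was thus below equal shares on day 2 and *Uba1* not detectably so. On day 1 *Atrx* was already at 40.8% (36.6 to 45.0) in 40 cells with Xi B6 but at 51.3% (39.6 to 63.0) in 5 cells with Xi Cast, and at 46.0% B6 (42.9 to 49.1) in the 70 cells without *Xist*, while its bulk Xi:Xa ratio was not called lower on that day in either deletion line.

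The X-linked gene whose 8 changes of the log2 Xi:Xa ratio, over 2 lines and 4 days, lay nearest to those of each gene was found among 424 genes with a mean of at least 20 allele-specific counts. For *Huwe1* it was *Bclaf3*, at a Euclidean distance of 0.147 beside a median distance of *Huwe1* to all of them of 1.41. *Atrx* had *Emd* (0.230), *Hcfc1* had *Tab3* (0.243), *Rps4x* had *Ogt* (0.281), *Uba1* had *Ndufb11* (0.292), *Usp9x* had *Zfp182* (0.357), *Rbm3* had *Uba1* (0.366) and *Alg13* had *Zfp275* (0.394). *Flna* was the least matched, with *Pdzd11* at 0.538. The second nearest were *Renbp* (0.315) for *Rps4x*, *Plp2* (0.5555) for *Flna*, *Smc1a* (0.1485) for *Huwe1* and *Mmgt1* (0.337) for *Uba1*. They were *Prkx* (0.266) for *Hcfc1*, *Igbp1* (0.406) for *Rbm3*, *Tab3* (0.323) for *Atrx* and *Hccs* (0.478) for *Alg13*. For *Usp9x* it was *Eif2s3x* (0.380), which is known to escape inactivation.

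Related genes are given by lists, which are not independent of the 9 genes where they share members. The Xi:Xa ratio on day 4 was lower in TXdXicB6 for 6 of 6 X-linked translation genes tested, 8 of 9 ubiquitin system genes, 16 of 18 chromatin and transcription genes, 8 of 11 RNA-binding genes, 7 of 10 cytoskeleton genes and 8 of 10 glycosylation and secretory genes. Their medians were -1.12, -1.22, -1.21, -0.80, -1.82 and -0.73, beside -1.21 for all X-linked genes tested, of which 59.1% were lower. In TXdXicCast, where 46.3% of the X-linked genes were lower, the counts were 5, 5, 11, 8, 8 and 4, with medians of -0.46, -0.65, -0.62, -0.57, -1.002 and -0.15 beside -0.68. No gene of these lists was called higher in either line. *Rps4x* was among the less silenced translation genes in TXdXicB6, with *Eif2s3x* (-0.34) below it and *Eif1ax* (-1.57) and *Gspt2* (-1.22) at the other end. Among ubiquitin system genes *Usp26* (-2.23) had the most negative change and *Usp51* followed (-1.77, not called), while *Usp9x* and *Uba1* had the least negative ones. For the chromatin and transcription genes the ends were *Hdac8* (-2.41) and *Phf6* (-2.21) against *Taf1* (-0.25) and *Stag2* (-0.72), neither of which was called. RNA-binding genes ran from *Rbmx* (-1.88) and *Rbm10* (-1.38) to *Rbm3* and *Hnrnph2* (-0.22, not called). For cytoskeleton genes they were *Map7d3* (-2.62, not called) and *Map7d2* (-2.52) against *Tmsb4x* (-0.67) and *Wdr13* (-0.44), not called. *Magt1* (-1.62) and *Piga* (-1.59) had the most negative changes of the glycosylation and secretory genes, and *Atp6ap1* (0.37) and *Ssr4* (-0.50), not called, stood at the other end.

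Of the 8 genes known to escape X inactivation in mouse, 6 had a lower Xi:Xa ratio on day 4 in TXdXicB6 (59.1% of all X-linked genes tested) and 3 in TXdXicCast (46.3%), with medians of -0.59 and -0.27. *Mid1* (-1.96) and *Utp14a* (-1.18) had the most negative and *Kdm6a* (-0.0049, not called) and *Eif2s3x* the least negative changes in TXdXicB6. The changes of *Usp9x* (-0.34) and *Rbm3* (-0.57) in TXdXicB6, and of *Rps4x* (-0.18) and *Rbm3* (-0.24) in TXdXicCast, were no more negative than the median of that list. Autosomal housekeeping genes, for which Xi and Xa stand for the same alleles as on the X chromosome, showed 1 lower and 0 higher of 12 in TXdXicB6 and 1 lower and 1 higher in TXdXicCast, with medians of 0.01 and -0.05, where 16.3% and 21.6% of all genes tested were called in either direction, and *Rps3* was called in both lines (-0.20 and 0.50). *Actb* (-0.60) and *Rplp0* (0.16) had the extreme changes of that list in TXdXicB6, neither of them called, with *Ppia* (0.13) next to *Rplp0*.

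For paralogs and partners of the 9 genes outside the list, the allelic ratio on day 4 was higher for 2 and lower for 0 of 9 tested in TXdXicB6 (median -0.11) and higher for 0 and lower for 2 in TXdXicCast (median -0.05). Over all 15283 genes tested, 1107 were higher and 1379 lower in TXdXicB6 (16.3% in either direction), and 1540 and 1760 in TXdXicCast (21.6%). In total dose they changed in both directions, with 3 of 10 tested higher and 3 lower on day 4 in TX1072, 5 and 4 in TXdXicB6, and 5 and 4 in TXdXicCast, where 59.8%, 59.3% and 69.7% of all genes tested were called in either direction. The filamin *Flnc* (5.44 ± 0.18), which crosslinks actin like *Flna*, rose in TX1072. *Hcfc2* (-1.32 ± 0.15), the paralog of *Hcfc1*, and *Rps4l* (-0.79 ± 0.15) fell there. Of the autosomal housekeeping genes, 2 of 12 were higher and 3 lower in total dose on day 4 in TX1072, among them *Actb* (0.80), which rose, and *Eef1a1* (-0.53) and *Rps3* (-0.39), which fell.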

How the data were processed

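Per the labels and the study's methods, the authors aligned the reads to mm10 with N-masked strain positions (STAR 2.5.2b), assigned them to B6 or Cast (SNPsplit 0.3.2) and counted them per gene (Rsubread 1.34.7); single-cell reads were counted as UMIs with the Drop-seq pipeline. The deposited values used here are raw counts per gene, in total and per allele. The files gave 45 bulk libraries and 2000 capture sites, of which the 1472 cells the study retained were used, without sites of several cells.

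From the deposited counts, total dose was fitted with edgeR 4.0.16 (R 4.3.3, limma 3.58.1) by the quasi-likelihood test, with TMM factors from autosomal genes, filterByExpr and Benjamini-Hochberg adjustment at 0.05 over all genes tested, two-sided, separately for TX1072 and the deletion lines, whose kits differed. Allelic changes were fitted with a term per library and an allele effect per line and day. DESeq2 1.42.0 was an alternative. Levels are printed per autosomal count without TMM factors. Ratios had 1 added to each count. The fits were tested on simulated data. Exact intervals cover counting error only.

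The 9 genes and all lists were chosen with earlier results of these data known. Named genes are the 9, *Xist*, the nearest gene of each and, per list, those with the largest and smallest change at day 4, in the Xi:Xa ratio of TXdXicB6 for X-linked lists and in total dose of TX1072 for autosomal ones; further ends of a list, second neighbours, genes named by abundance rank and the most abundant marker of a cell type were named after their values were seen. Replicates were differentiated on different days per the study's reporting summary, so equal numbers pair the libraries across days of a line. Deviations from the group means had a median correlation of 0.126, 0.211 and 0.149 for equal numbers in TX1072, TXdXicB6 and TXdXicCast. For unequal numbers it was -0.069, -0.109 and -0.121, values that centering on the group means draws negative where equal numbers correlate. The main total dose fits had no term for this pairing, which only the replicate block adds. Values of some single genes on these lists are not reported here.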

Additional observations from a re-analysis of the deposited data

Results flagged for a closer look

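The change from day 0 differed between TXdXicB6 and TXdXicCast for the following genes, by the edgeR test of the difference itself (TXdXicCast minus TXdXicB6, log2 scale). These are differences between changes from day 0, not between the ratios of a day. At day 1 the change in the Xi:Xa ratio was more negative in TXdXicCast for *Flna* (-0.48) and *Usp9x* (-0.24) and more positive for *Rps4x* (0.25). At day 2 it was more negative there for *Alg13* (-0.59), *Flna* (-0.83) and *Usp9x* (-0.73). At day 3 the difference was negative for *Flna* (-0.23) and *Usp9x* (-0.63) and positive for *Atrx* (0.27), *Hcfc1* (0.25) and *Rps4x* (0.31). At day 4 it was negative for *Usp9x* (-0.41) and positive for *Atrx* (0.46), *Hcfc1* (0.55), *Huwe1* (0.32), *Rbm3* (0.34), *Rps4x* (0.54) and *Uba1* (0.19). The median difference of the 518 X-linked genes tested was 0.32 at day 3 and 0.48 at day 4.

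In total dose, the median difference of the X-linked genes tested was 0.37 at day 4. *Alg13* differed at day 1 (0.62), day 2 (0.55), day 3 (0.55) and day 4 (0.59), and *Usp9x* at day 2 (0.74) and day 4 (1.05). Each of these 6 calls was lost when 1 replicate was left out, those of days 1 to 3 whichever it was, and the *Alg13* difference turned negative and was not called at days 2 to 4 when counted from day 1. In the Xi:Xa ratio, the calls of *Rps4x* and *Usp9x* at day 1, of *Flna*, *Atrx* and *Hcfc1* at day 3 and of *Uba1* at day 4 were lost without at least 1 replicate, and when changes were counted from day 1, *Flna* at day 3 was called in the other direction (0.25), *Rps4x* at day 3 (0.061) and *Usp9x* at day 4 (-0.17) were no longer called, and *Rps4x* at day 4 fell to 0.29 and was still called. Line, clone and the chromosome that is inactivated cannot be told apart in any of these differences.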

How the results depend on the processing

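Of 288 comparisons of the 9 genes, 148 were called. Of these calls, 51 were lost when 1 replicate was left out and 26 under another alternative. Counting from day 1 was done only for days 2 to 4 of the deletion lines, and 32 calls were lost there. A reversed change counts as lost, also where it was called in the other direction, as for *Flna* in TXdXicB6 at days 2 and 3. At day 4, 1 of 18 silencing calls and 0 of 6 total dose calls in TX1072 were lost without a replicate, but 4 of 12 total dose calls in the deletion lines and 2 of 2 total dose line differences were. At days 1 to 3 the losses were 7 of 33 silencing calls, 7 of 13 total dose calls in TX1072, 17 of 33 in the deletion lines, 4 of 4 total dose line differences, 5 of 11 silencing line differences and 2 of 6 allelic shifts in TX1072. Counted from day 1, 5 of the 9 genes were called in total dose at day 4 in TXdXicB6 (8 from day 0), and the line difference at day 4 held 165 genes (2970) and 1 of the 9, *Flna* (0.70), in place of *Alg13* and *Usp9x*.

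Counted from day 1, these log2 changes reversed. In the line difference of silencing they were *Flna* at day 3 (0.25) and *Alg13* at day 4 (0.065), and in TXdXicCast silencing *Rbm3* at day 3 (0.022). In TXdXicB6 total dose they were *Flna* at day 2 (-0.64) and day 3 (-0.40), *Atrx* at day 3 (0.15), and *Alg13* (0.12) and *Rbm3* (-0.084) at day 4. In TXdXicCast they were *Flna* (-0.56), *Hcfc1* (-0.027) and *Uba1* (0.0011) at day 2, *Atrx* (0.0085) and *Uba1* (0.059) at day 3, and *Alg13* (0.092) and *Rbm3* (-0.026) at day 4. In the line difference of total dose they were *Alg13* at days 2, 3 and 4 (-0.069, -0.077 and -0.029), and *Rbm3* (0.058), *Rps4x* (0.058) and *Uba1* (0.25) at day 4. The cause was not tested. At day 4 the line difference of total dose was 0.13 for *Atrx* without the 4 libraries of low allele share and 0.0050 for *Uba1* with TMM over all genes.

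Leaving out 1 replicate gave 34 to 45 X-linked genes with an allelic shift in TX1072 at day 4 (52 with all), and 101 to 1793 genes and 0 to 2 of the 9 in the line difference of total dose. Uncalled log2 values that changed sign at day 4 ranged, in the TX1072 shift, from -0.092 to 0.10 (*Hcfc1*), -0.076 to 0.0067 (*Huwe1*) and -0.061 to 0.24 (*Rbm3*), in the line difference of silencing from -0.076 to 0.092 (*Flna*), in total dose from -0.14 to 0.0083 (*Rbm3*, TX1072), -0.12 to 0.038 (*Huwe1*), -0.029 to 0.16 (*Rbm3*) and -0.24 to 0.10 (*Usp9x*, these in TXdXicCast), and in its line difference from -0.10 to 0.12 (*Atrx*), -0.12 to 0.031 (*Hcfc1*), -0.19 to 0.22 (*Rps4x*) and -0.11 to 0.088 (*Uba1*).

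Per autosomal count without TMM, the scale of the printed levels and an alternative chosen after seeing the data, the line difference of total dose at day 4 held 4 of the 9 genes. Day 4 changes that reversed were *Hcfc1* (0.050) and *Rbm3* (0.043) in TX1072, *Alg13* (0.13), *Huwe1* (0.22, called), *Rps4x* (0.0033) and *Usp9x* (0.14) in TXdXicCast, and *Atrx* (0.13), *Hcfc1* (0.069), *Rps4x* (0.094) and *Uba1* (0.14) in the line difference.

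With the replicate block, the line difference of total dose at day 4 held 4771 genes, and *Rps4x* (-0.25 in TXdXicB6, -0.27 in TXdXicCast) gained a call. The summed Xi:Xa ratio in TXdXicCast at day 4 was 0.599 without the 9 genes. From unspliced UMIs alone, the 9 genes gave a share of 25.6% from Xi B6 and 17.1% from Xi Cast at day 4. Without *Rps4x*, an alternative chosen after seeing the data, they were 23.9% and 17.8%. Depth limits the single-cell shares of *Hcfc1* and *Rbm3*.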
